A study of Mus musculus with 9 samples.

Results

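The genes described here are 10 members of polyamine metabolism in mouse spinal cord: Sat1, Smox and Paox of the breakdown and recycling arm, Odc1, Amd1, Srm and Sms of synthesis, and Oaz1, Oaz2 and Azin1, which control Odc1 protein. They were found by symbol among the 40879 gene symbols of the deposited tables, and all 10 had enough counts to be tested. Sat1 was chosen by its level in the comparison of SNI with sham in these same libraries, where it ranked 8 of 18245 genes by unadjusted p. The other 9 were added for their role in the pathway, with results of these data in view. The levels of Sat1 in SNI and sham are therefore given as a description with no test, and so are its comparisons of SNI+LDN193189 and of both injured groups with sham, which use the same sham libraries.

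RNA of whole spinal cord from male mice was sequenced in 9 libraries, 3 from each of 3 groups: SNI+LDN193189, SNI and sham. SNI is the usual short form of spared nerve injury, in which some branches of the sciatic nerve are cut and the remaining branch is left intact, and LDN193189 is a compound that blocks BMP type I receptor kinases such as ACVR1. The sham group received neither the nerve injury nor, as far as its label says, the compound; a vehicle is not named for any group. Strain, genotype, age, cord segment and side, time after injury, and dose and route of the compound are not given in the labels, and the extraction protocol speaks of cell lines although every sample is labelled spinal cord. The labels number the samples as separate biosamples but do not say that each is 1 animal, so p-values measure the spread between these samples. The columns of the tables carry the letters L, N and S, which were read as LDN193189, SNI and sham. If S were SNI instead, the signs between SNI and sham would be the other way round, and the 2 contrasts of SNI+LDN193189 would swap. The injured-neuron markers Sprr1a, Atf3 and Gal summed to 17.0 to 43.1 CPM (counts scaled for library size) in the N columns. In the S columns they summed to 4.56 to 6.43 CPM, the order that the reading used here requires.

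Totals were 33432776 to 37190467 counts per library. Sprr1a, a gene switched on in injured neurons, stood at 6.38, 17.4 and 0.688 CPM (counts scaled for library size) in SNI+LDN193189, at 6.62, 15.1 and 23.0 CPM in SNI and at 0.161, 0.235 and 0.215 CPM in sham, so replicate 3 of SNI+LDN193189 lay near the sham libraries. The cord markers fixed for neurons and oligodendrocytes were present in every library. Neuron markers summed to 5648 to 6029 CPM in SNI+LDN193189, 5626 to 6018 CPM in SNI and 5030 to 5810 CPM in sham. Oligodendrocyte markers summed to 23628 to 25837 CPM in SNI+LDN193189, 22066 to 25573 CPM in SNI and 22281 to 24333 CPM in sham. In both lists the groups overlapped, and the middle sum was lowest in sham. In the astrocyte list Aqp4, and in the microglia list P2ry12, were listed at 0 in all 9 libraries, while the other members of both lists had counts. Markers of Schwann cells and nerve root (6 of 6 tested) summed to 737 to 1805 CPM in SNI+LDN193189, 279 to 850 CPM in SNI and 822 to 5885 CPM in sham, with the highest sum in sham replicate 3. Skeletal muscle markers (5 of 5 tested) reached 488 CPM in sham replicate 1 and were at most 9.91 CPM in every other library. Markers of sensory ganglion neurons (3 of 4 tested) summed to 24.0 CPM in sham replicate 2 and to at most 3.23 CPM in every other library. Each of the 3 sham libraries thus stood apart in a marker list, and values that move with 1 of them or with SNI+LDN193189 replicate 3 are given without it.

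Polyamines are small positively charged molecules made from ornithine. Odc1 (ornithine decarboxylase) makes putrescine, Amd1 (S-adenosylmethionine decarboxylase) supplies the aminopropyl groups, and Srm and Sms (spermidine and spermine synthase) add these groups in turn. Sat1 (spermidine/spermine N1-acetyltransferase) acetylates spermidine and spermine, Paox oxidises the acetylated forms back to smaller polyamines, and Smox oxidises spermine directly. Antizymes, Oaz1 and Oaz2 among them, bind Odc1 protein and lead it to the proteasome, and their own translation needs a ribosomal frameshift that polyamines promote; Azin1, which resembles Odc1 but has no decarboxylase activity, takes antizyme away from it. Much of this control acts on translation and protein stability, which RNA levels do not measure. In nervous tissue spermine is known to block calcium-permeable AMPA receptors and inward rectifier potassium channels.

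The promoters of Sat1, the member on which attention rests, and of Oaz1, the member with the highest deposited level per gene length, are shown to set the arms of breakdown and of Odc1 control side by side. Each line gives the 250 bases before the RefSeq gene start in the GRCm38.p6 table, from 5′ to 3′ on the gene's own strand. Capitals mark matches to GGGCGG (GC box) in Sat1, and to TGACG (core of the cyclic AMP response element) and TGACNNNGC (core of the antioxidant response element) in Oaz1, on either strand.
Sat1: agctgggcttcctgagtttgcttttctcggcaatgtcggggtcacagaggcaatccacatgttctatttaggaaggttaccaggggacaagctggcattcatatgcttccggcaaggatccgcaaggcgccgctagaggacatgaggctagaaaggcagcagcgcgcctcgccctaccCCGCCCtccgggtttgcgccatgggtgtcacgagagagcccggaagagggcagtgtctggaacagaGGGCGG
Oaz1: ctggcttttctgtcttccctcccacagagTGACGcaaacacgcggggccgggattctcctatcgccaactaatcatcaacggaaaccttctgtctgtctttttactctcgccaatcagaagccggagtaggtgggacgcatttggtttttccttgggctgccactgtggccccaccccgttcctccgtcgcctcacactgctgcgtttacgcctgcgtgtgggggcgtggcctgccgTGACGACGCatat
The Sat1 window is chrX:155216450-155216699 on the minus strand, with its GC boxes 72 and 6 bases before the start. The Oaz1 window is chr10:80826406-80826655 on the plus strand, with TGACG matches 221 and 13 bases before the start; the match nearer to the start is also the antioxidant response element match, so these overlap. Neither window holds a base of a GENCODE M21 exon. Of 32851 mouse promoter windows of this length, 32.7% held the GC box letters, 17.8% the core of the cyclic AMP response element and 10.2% that of the antioxidant response element. The letters CACGTG (E-box) were held by 6.02%, and the TATA box by 12.4%, searched as TATAAA. No E-box or TATA box letters were found in either window, neither response element core in that of Sat1 and no GC box in that of Oaz1. Entries were found for 8 of the 10 genes, and none was matched for Azin1 and Srm. The cyclic AMP response element core was also found in the windows of Odc1 and Amd1, and the antioxidant response element core in that of Smox. GC box letters were also found for Smox, Paox, Odc1, Amd1, Sms and Oaz2, so for every gene with an entry except Oaz1. E-box letters were found in a window of Sms. A match is a stretch of letters, not a measured binding site.

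In the GENCODE M21 annotation of GRCm38 the genes lie on 8 chromosomes. Sat1 (X:155213132-155216449) and Sms (X:157443855-157492287) are both on the minus strand of chromosome X. Oaz1 (10:80826656-80829290) and Amd1 (10:40287458-40302186) are on chromosome 10. Smox (2:131491496-131525922), Srm (4:148591503-148594993), Paox (7:140115799-140137224), Oaz2 (9:65668001-65690300), Odc1 (12:17544794-17551505) and Azin1 (15:38487427-38519266) are on chromosomes of their own. Values are for whole genes, since the tables do not separate transcripts. Exons of Azin1 share 358 bases with the opposite-strand Gm49077, those of Paox share 142 bases with the opposite-strand Echs1, and Oaz1 contains the 74 bases of Mir1982. The libraries mark strand per the labels, but whether strand was used in counting is not given in the sources used here. Near-identical copies exist for Amd1 and Oaz1: of all 150-base windows of Amd2, 61.6% occur in Amd1, and of those of the pseudogene Oaz1-ps, 72.9% occur in Oaz1, so reads may have been divided between each pair.

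Levels per gene length were compared in FPKM (fragments scaled for gene length and library size) as deposited. Over the 9 libraries Oaz1 had the highest level per length at a mean of 113 FPKM, followed by Oaz2 at 80.8, Sms at 53.0, Amd1 at 44.1, Sat1 at 43.0, Odc1 at 34.7, Azin1 at 23.7, Srm at 17.6, Smox at 9.12 and Paox at 0.539 FPKM. Neighbours in this order did not overlap in their ranges over the libraries, except Amd1 and Sat1, where Amd1 was above Sat1 in 5 of 9 libraries, and Sat1 and Odc1, where Sat1 was above Odc1 in 8 of 9. The antizymes were thus present at more RNA per length than the enzyme they bind in every library: the ratio of Oaz1 to Odc1 in FPKM was 3.35, 2.95 and 3.70 in SNI+LDN193189, 3.43, 3.24 and 3.33 in SNI, and 3.47, 3.34 and 2.73 in sham. The acetylated-polyamine oxidase Paox stood far below every other member, at 0.402 to 0.614 FPKM. These levels depend on the gene lengths used upstream, for which the FPKM values imply 1642 bases for Sat1 and 9314 bases for Paox. For Oaz1 they imply 1070 bases and for Azin1 9163 bases, while the GENCODE M21 exons cover 2558 and 6256 bases. The order of the genes and the ratio of Oaz1 to Odc1 are therefore given for the deposited FPKM only. In CPM, which uses no gene length, Oaz1 was below Oaz2, Sms and Azin1 in every library.

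**Figure D1:**
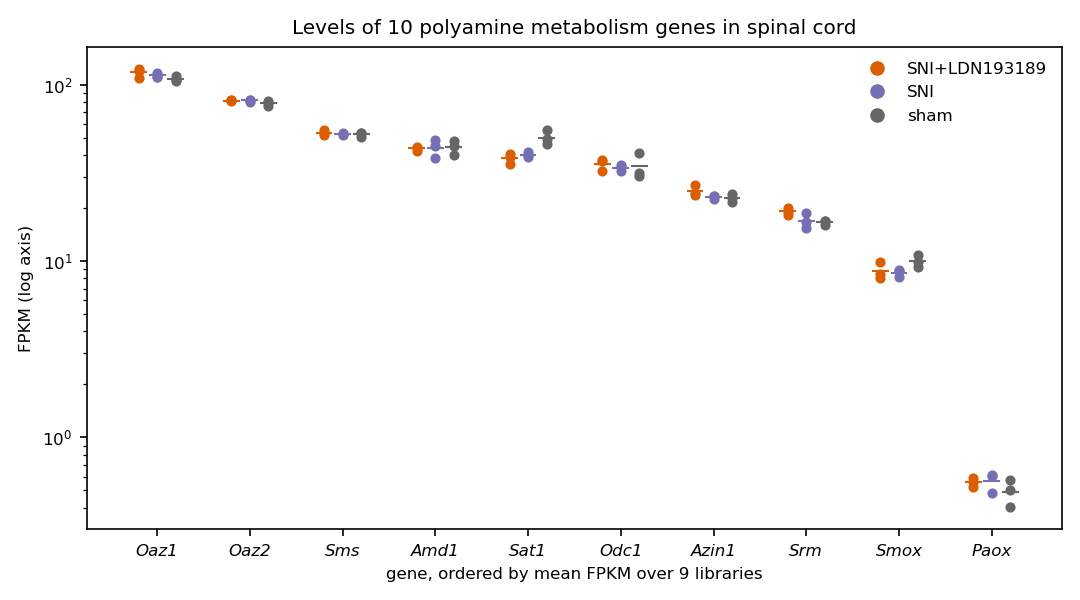
Deposited FPKM values (log axis) of the 10 genes, ordered by their mean over 9 libraries. Each point is 1 library and each short line a group mean of 3 libraries, in the order SNI+LDN193189, SNI, sham; Oaz1 is at 105 to 123 FPKM and Paox at 0.402 to 0.614 FPKM, and the groups lie close together beside the distance between genes.

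Sat1 was lower in both injured groups than in sham, and SNI+LDN193189 lay beside SNI. Its level was 66.6, 59.2 and 64.8 CPM in SNI+LDN193189, 69.4, 64.5 and 64.7 CPM in SNI, and 79.8, 77.0 and 88.9 CPM in sham. The lowest sham library was above the highest injured library, and the 2 injured groups overlapped. The same held for the deposited FPKM, at 40.5, 35.6 and 39.3 in SNI+LDN193189, 41.6, 39.2 and 39.9 in SNI, and 49.2, 46.1 and 55.3 in sham. Means were 63.5 ± 3.83 CPM in SNI+LDN193189, 66.2 ± 2.79 CPM in SNI and 81.9 ± 6.18 CPM in sham (SD, n = 3 each). As a description, the fitted log2 fold change was -0.31 for SNI against sham (a difference of -19.2%) and -0.37 for SNI+LDN193189 against sham (a difference of -22.5%). All 9 Sat1 counts were even numbers, as were 70.7 to 71.8% of the counts above 0 in a library. In bulk tissue, fewer cells that hold an RNA and less of it per cell cannot be told apart.

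Sham replicate 3 had both the highest Sat1 level and the highest sums of Schwann and nerve root markers (5885 CPM) and of meningeal fibroblast markers (793 CPM, 6 of 6 tested, against 141 to 229 CPM in SNI+LDN193189, 106 to 193 CPM in SNI and 148 and 301 CPM in the other sham libraries). Without it the log2 fold change of Sat1 was -0.25 for SNI against sham and -0.31 for SNI+LDN193189 against sham. Sham replicate 1, with 822 CPM of these markers, had 79.8 CPM of Sat1, and SNI+LDN193189 replicate 1, with 1805 CPM of markers, had 66.6 CPM. The 6 microglia markers, of which 5 were tested, summed to 250 to 266 CPM in SNI+LDN193189, 235 to 257 CPM in SNI and 197 to 229 CPM in sham. Both injured groups thus lay above sham, opposite to Sat1, and overlapped each other. Cx3cr1 was highest in SNI, at means of 42.3 CPM in SNI+LDN193189, 46.1 CPM in SNI and 37.3 CPM in sham. The 4 endothelial markers, all tested, summed to 183 to 192 CPM in SNI+LDN193189, 187 to 214 CPM in SNI and 202 to 230 CPM in sham, with the highest sum again in sham replicate 3. The means of Cldn5, Flt1 and Pecam1 were lowest in SNI+LDN193189 and highest in sham. Ly6c1 did not share this order, at means of 44.4 CPM in SNI+LDN193189, 39.1 CPM in SNI and 40.8 CPM in sham. The part of these cell types in the Sat1 levels was not tested.

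What Sat1 did between SNI+LDN193189 and SNI is a comparison that did not choose it, although its SNI libraries did enter the choice. The log2 fold change was -0.06 (SE 0.0660, edgeR quasi-likelihood test with Benjamini-Hochberg adjustment over all genes, adjusted p = 1.00), and its 95% interval of -0.20 to 0.08 corresponds to a difference between -12.9 and 5.79%.

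**Figure D2:**
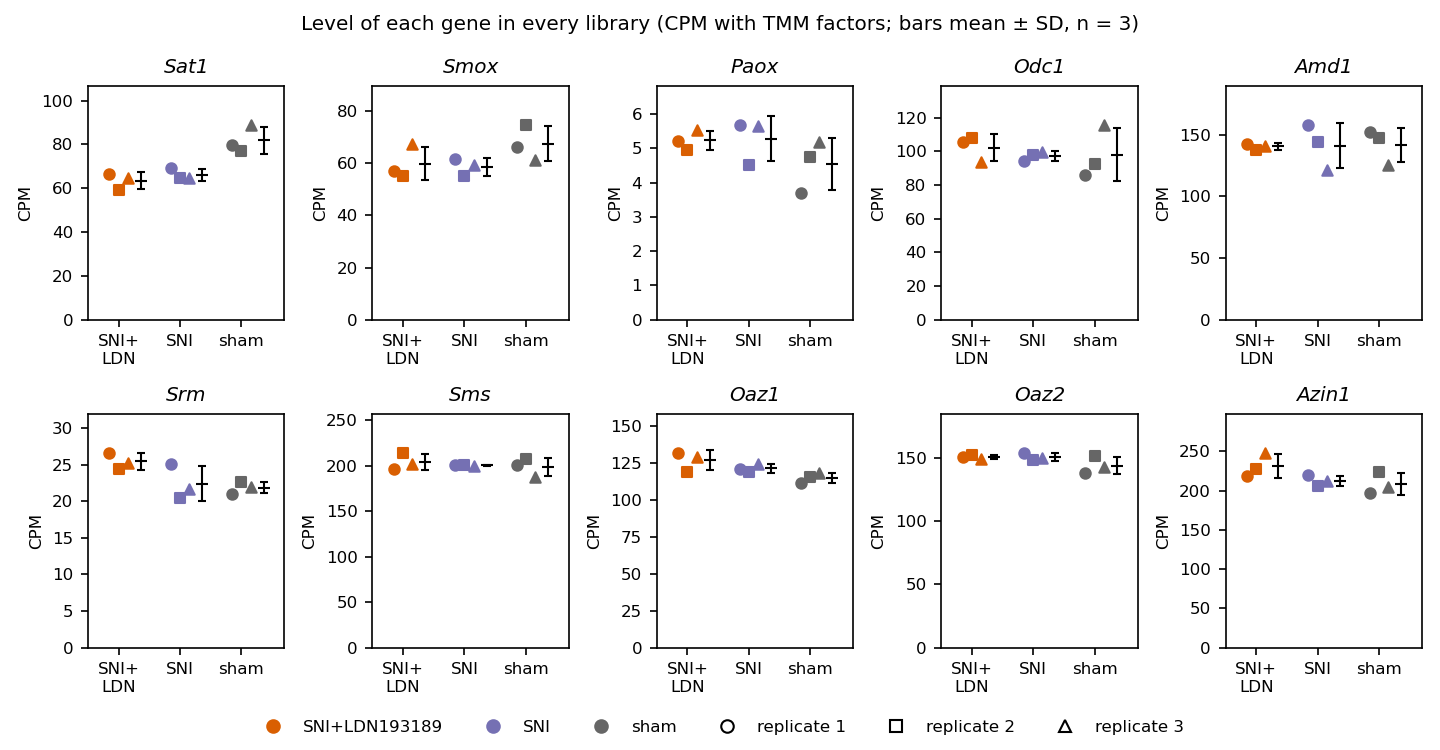
Level of each gene in CPM in every library, on linear axes that start at 0; point shapes mark the replicate number, and the bar beside each group is the mean ± SD of 3 libraries. For Sat1 the 3 sham points (77.0 to 88.9 CPM) lie above the 6 points of SNI+LDN193189 and SNI (59.2 to 69.4 CPM), while in the panels of Sms, Amd1 and Odc1 the groups overlap.

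Smox, the spermine oxidase, stood lower in the injured groups on average but overlapped with sham. Its level was 57.1, 55.1 and 67.1 CPM in SNI+LDN193189, 61.6, 54.9 and 59.1 CPM in SNI, and 66.3, 74.5 and 61.3 CPM in sham. The high library among the injured ones was SNI+LDN193189 replicate 3, the library with a Sprr1a level near sham, and the lowest sham library was replicate 3. The log2 fold change was -0.20 for SNI against sham (SE 0.0848, adjusted p = 0.927) and -0.17 for SNI+LDN193189 against sham (SE 0.0848, adjusted p = 0.598). Without sham replicate 2, the library with the highest level, these values were -0.12 and -0.094. With each library left out in turn, the log2 fold change ran from -0.27 to -0.12 for SNI against sham. For SNI+LDN193189 against sham it ran from -0.27 to -0.094. Between SNI+LDN193189 and SNI it was 0.03 (95% interval -0.15 to 0.21, adjusted p = 1.00), and it turned to -0.06 without SNI+LDN193189 replicate 3. None of these passed the threshold of 0.05. Paox, at 166 to 193 counts in SNI+LDN193189, 168 to 204 counts in SNI and 138 to 193 counts in sham, had the widest intervals of the 10 genes. Its log2 fold change was -0.01 for SNI+LDN193189 against SNI (-0.37 to 0.35), and 0.22 for SNI against sham (-0.14 to 0.58, adjusted p = 0.954); the second of these was 0.085 without sham replicate 1. Of the 3 genes of breakdown and recycling, then, Paox had the opposite sign to Sat1 and Smox against sham.

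Among the synthesis genes, Srm had the largest difference. Its level was 26.7, 24.5 and 25.3 CPM in SNI+LDN193189, 25.1, 20.4 and 21.7 CPM in SNI, and 21.1, 22.6 and 22.0 CPM in sham. All SNI+LDN193189 libraries were above all sham libraries, and they overlapped with SNI through SNI replicate 1. The log2 fold change was 0.18 for SNI+LDN193189 against SNI (SE 0.0869, unadjusted p = 0.0499, adjusted p = 1.00), 0.22 for SNI+LDN193189 against sham (SE 0.0869, unadjusted p = 0.0236, adjusted p = 0.547), and 0.03 for SNI against sham (adjusted p = 0.992). Srm therefore did not pass the adjusted threshold in any comparison. With each library left out in turn, its value ran from 0.12 to 0.27 for SNI+LDN193189 against SNI and from 0.18 to 0.25 for SNI+LDN193189 against sham.

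Odc1, the enzyme that opens the pathway, had 105, 108 and 93.4 CPM in SNI+LDN193189, 94.3, 97.9 and 99.8 CPM in SNI, and 85.7, 92.6 and 116 CPM in sham. The highest and the lowest of the 9 libraries were both sham libraries, replicates 3 and 1. The log2 fold change was 0.07 for SNI+LDN193189 against SNI (95% interval -0.15 to 0.29), -0.01 for SNI against sham (-0.23 to 0.21) and 0.06 for SNI+LDN193189 against sham (-0.16 to 0.28), with adjusted p of 1.00, 0.999 and 0.883. Without sham replicate 3 the value for SNI against sham turned to 0.13, and without sham replicate 1 that for SNI+LDN193189 against sham turned to -0.03. The ratio of Odc1 to Sat1 in FPKM was 0.909, 1.05 and 0.829 in SNI+LDN193189, 0.781, 0.872 and 0.887 in SNI, and 0.617, 0.691 and 0.748 in sham. Every injured library had a higher ratio than every sham library. Odc1 itself overlapped between the groups, and the Sat1 values in this ratio are those that chose the gene.

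Amd1 and Sms were close to equal between the groups. Amd1 averaged 140 ± 2.54 CPM in SNI+LDN193189, 141 ± 18.3 CPM in SNI and 142 ± 14.0 CPM in sham (SD, n = 3 each), and the log2 fold change of SNI+LDN193189 against SNI was -0.0060 (95% interval -0.21 to 0.20). Its near copy Amd2 had 28 to 198 counts in a library, against 4387 to 5671 for Amd1. Sms averaged 204 ± 8.96 CPM in SNI+LDN193189, 200 ± 0.628 CPM in SNI and 198 ± 10.2 CPM in sham (SD, n = 3 each). The intervals of Sms reached from -0.08 to 0.14 for SNI+LDN193189 against SNI and from -0.10 to 0.12 for SNI against sham on the log2 scale, among the narrowest of the 10 genes. The ratio of Sms to Srm in FPKM was 2.57, 3.05 and 2.79 in SNI+LDN193189, 2.79, 3.42 and 3.20 in SNI, and 3.33, 3.19 and 2.97 in sham, and the groups overlapped.

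The differences of Oaz1, Oaz2 and Azin1, which regulate Odc1 protein, were positive in every comparison of the edgeR fit with TMM scaling. These comparisons share libraries, so the signs are not separate observations. For Azin1 the value for SNI against sham turned to -0.013 with 1 library left out. The Oaz2 value of 0.0020 for SNI+LDN193189 against SNI changed sign under several alternatives, upper-quartile scaling and library totals among them. Oaz1 had 132, 119 and 129 CPM in SNI+LDN193189, 121, 119 and 124 CPM in SNI, and 111, 116 and 118 CPM in sham. The injured libraries were above the sham libraries in CPM, though by a margin of less than 1 CPM between SNI replicate 2 and sham replicate 3, and in FPKM both SNI+LDN193189 (110 FPKM in replicate 2) and SNI (111 FPKM in replicate 2) overlapped with sham (113 FPKM in replicate 3). The log2 fold change was 0.14 for SNI+LDN193189 against sham (SE 0.0532, unadjusted p = 0.0170, adjusted p = 0.547), 0.08 for SNI against sham (adjusted p = 0.941) and 0.06 for SNI+LDN193189 against SNI (95% interval -0.05 to 0.18, adjusted p = 1.00). The pseudogene Oaz1-ps had 397 to 491 counts in a library, against 3943 to 4599 for Oaz1. With the pseudogene's counts added, the Oaz1 value for SNI+LDN193189 against sham was 0.13. With each library left out in turn, it ran from 0.11 to 0.19.

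Azin1, the inhibitor of the antizymes, had 218, 227 and 248 CPM in SNI+LDN193189, 219, 206 and 212 CPM in SNI, and 197, 223 and 205 CPM in sham. The highest value was in SNI+LDN193189 replicate 3, and the groups overlapped. The log2 fold change was 0.12 for SNI+LDN193189 against SNI (SE 0.0605, unadjusted p = 0.0615, adjusted p = 1.00), 0.15 for SNI+LDN193189 against sham (SE 0.0605, adjusted p = 0.547) and 0.03 for SNI against sham (adjusted p = 0.992). Without SNI+LDN193189 replicate 3 the first of these was 0.07 and the second 0.09. Oaz2 averaged 151 ± 1.58 CPM in SNI+LDN193189, 151 ± 3.11 CPM in SNI and 144 ± 7.01 CPM in sham (SD, n = 3 each), with a log2 fold change of 0.0020 for SNI+LDN193189 against SNI (95% interval -0.10 to 0.11) and 0.07 for SNI against sham (adjusted p = 0.944, and a value of 0.034 without sham replicate 1 or 0.11 without sham replicate 2). The ratio of Azin1 to Oaz1 in FPKM ran from 0.193 to 0.224 in SNI+LDN193189, from 0.199 to 0.212 in SNI and from 0.202 to 0.226 in sham, so the inhibitor and the antizyme kept overlapping proportions.

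**Figure D3:**
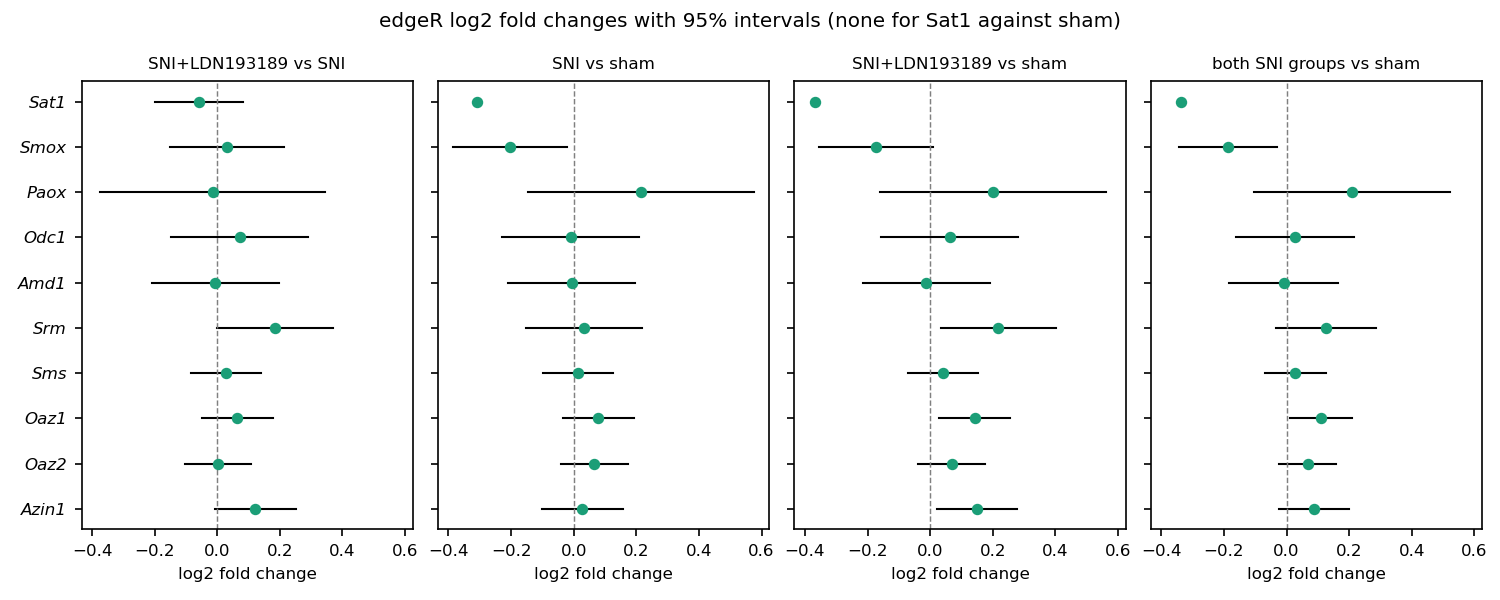
Fitted log2 fold changes of the 10 genes (points) with 95% intervals (lines) in 4 comparisons, each on the same axis; the first-named group is on top of the fold. Against sham Sat1 is drawn without an interval, since these libraries chose the gene. The intervals of Srm, Azin1 and Oaz1 lie above 0 for SNI+LDN193189 against sham, and that of Smox below 0 for SNI against sham. The interval of Srm lies just above 0 for SNI+LDN193189 against SNI. For both injured groups against sham that of Oaz1 lies above 0 and that of Smox below 0. None of these passed the adjusted threshold.

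Counted over the 10 genes, edgeR called 0 in SNI+LDN193189 against SNI, where 0.00548% of all 18245 genes were called, and 0 in SNI against sham, where 0% were called. It called 0 in SNI+LDN193189 against sham, where 0.0164% of all genes were called, and 0 in both injured groups together against sham, where 0.00548% were called. Of the 9 genes other than Sat1, an unadjusted p under 0.05 was found for 1 in the first of these comparisons (Srm), where 3.88% of all genes had one, and for 1 in the second (Smox), where 5.33% had one. In the third it was found for 3 (Oaz1, Azin1 and Srm) beside 8.56% of all genes, and in the fourth for 2 (Oaz1 and Smox) beside 8.07%; these share the sham libraries. Limma-voom and limma on log2 FPKM called 0 of the 10 in each comparison. DESeq2 called 0 in SNI+LDN193189 against SNI and 1 in each comparison with sham, the 1 being Sat1, from which nothing is read because these libraries chose it. The median log2 fold change of the 10 genes was 0.03, 0.02, 0.07 and 0.05 in the 4 comparisons in that order, beside -0.00075, 0.00048, -0.0069 and -0.0038 for all genes tested.

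Genes whose libraries do not overlap between groups in CPM were also counted. In SNI+LDN193189 against SNI this held for 0 of the 10 genes in either direction, beside 5.71% of all genes in the higher and 5.55% in the lower direction. In SNI against sham it held for 1 gene in the higher direction (Oaz1) and 1 in the lower (Sat1), beside 4.45 and 4.43% of all genes; nothing is read from Sat1 in this or the next comparisons, since these libraries chose it. In SNI+LDN193189 against sham it held for 2 genes in the higher direction (Srm and Oaz1) and 1 in the lower (Sat1), beside 6.81 and 6.31%. With both injured groups against sham it held for 1 gene in the higher direction (Oaz1) and 1 in the lower (Sat1), beside 1.67 and 1.3%. These comparisons share the sham libraries, so the repeated names are not separate observations.

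Beyond the 10 genes, 31 others linked to polyamines were followed, of which 29 were tested. Dohh, the last enzyme of hypusine formation, and Aoc1, a diamine oxidase, were listed at 0 in all libraries. Aqp4 and P2ry12 were listed at 0 too, beside well counted markers of the same cell types. A 0 in these data therefore does not show that the RNA was absent. None of the 29 was called by edgeR in any comparison, and at an unadjusted p under 0.05 there were 2 in SNI+LDN193189 against SNI, 1 in SNI versus sham, 5 in SNI+LDN193189 versus sham and 2 in both injured groups versus sham, beside 3.88, 5.33, 8.56 and 8.07% of all genes in that order. In SNI+LDN193189 against SNI, 21 of the 29 had a positive and 8 a negative fitted difference, beside 9079 and 9166 of all genes; in SNI against sham the split was 14 and 15. The 3 tested genes of the hypusine pathway, in which spermidine is used to modify the translation factor eIF5A (Eif5a, Eif5a2 and Dhps), had positive differences in every comparison under TMM scaling, at most 0.17 on the log2 scale and none called. Of the 8 transport genes 4 were positive and 4 negative in SNI+LDN193189 against SNI, and of the 7 genes of S-adenosylmethionine supply and methylthioadenosine salvage 6 were positive and 1 negative.

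Named here are the genes with the smallest p in each comparison, with those of transport given first. Slc22a3, an organic cation transporter that also carries polyamines, had 22, 36 and 22 counts in SNI+LDN193189, 10, 14 and 10 counts in SNI, and 10, 18 and 28 counts in sham. All 9 of these counts were even numbers, and no label explains this. Its SNI+LDN193189 libraries were above its SNI libraries, with a log2 fold change of 1.28 (95% interval 0.27 to 2.28, adjusted p = 1.00) on few counts, and they overlapped with sham. Slc18b1, the vesicular polyamine transporter, had 12.6, 13.9 and 13.4 CPM in SNI+LDN193189, 14.4, 17.2 and 14.7 CPM in SNI, and 16.0, 15.5 and 16.5 CPM in sham. Its SNI+LDN193189 libraries were below both other groups, with a log2 fold change of -0.21 against SNI (adjusted p = 1.00) and -0.27 against sham (adjusted p = 0.547). Gpc1, a heparan sulphate proteoglycan linked to polyamine uptake, had a log2 fold change of 0.13 for SNI against sham (adjusted p = 0.927) and 0.16 for SNI+LDN193189 against sham (adjusted p = 0.547). The ATPases Atp13a4 and Atp13a5 were at -0.18 each for SNI+LDN193189 against SNI, and Atp13a4 at -0.23 for SNI+LDN193189 against sham, with adjusted p of 0.548 or more. Atp13a2, the lysosomal polyamine exporter, was at 0.09 for SNI against sham (adjusted p = 0.941).

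Outside transport, the rule named Mat2b, the regulatory subunit of methionine adenosyltransferase, at 71.8, 73.5 and 74.7 CPM in SNI+LDN193189, 67.7, 67.8 and 71.6 CPM in SNI, and 64.1, 67.7 and 66.9 CPM in sham. Its log2 fold change was 0.15 for SNI+LDN193189 against sham (adjusted p = 0.531). Slc7a1, a cationic amino acid transporter that brings in arginine and ornithine, was at 0.11 and Adi1, of methylthioadenosine salvage, at -0.12 for SNI against sham (adjusted p = 0.941 for each). Agmat, agmatinase by its name, had 46 to 74 counts in SNI+LDN193189, 44 to 58 counts in SNI and 37 to 42 counts in sham. Its injured libraries did not overlap with sham, with a log2 fold change of 0.51 for both injured groups against sham (95% interval -0.03 to 1.04, adjusted p = 0.628).

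**Figure D4:**
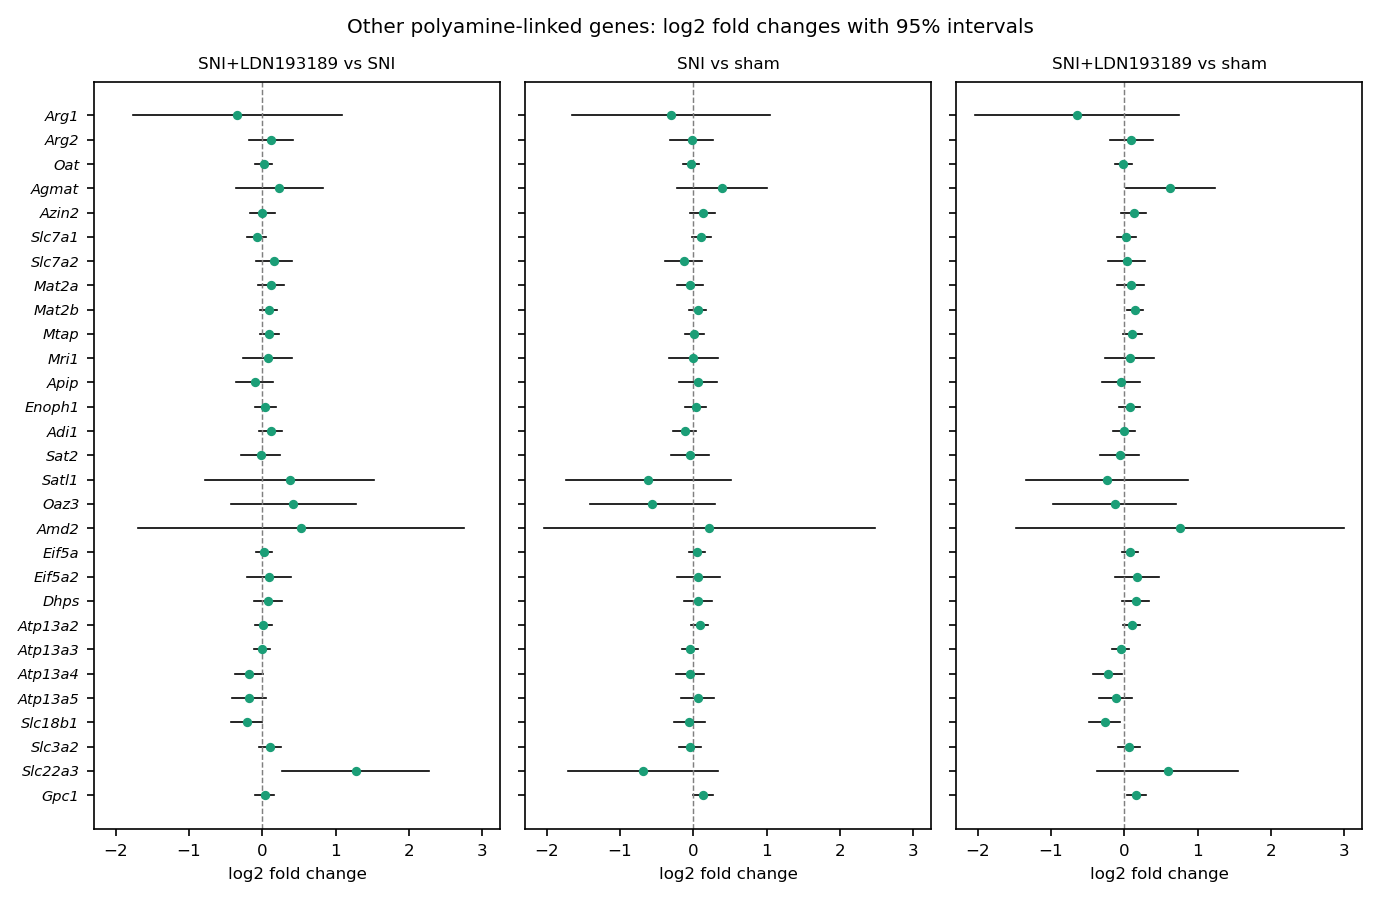
Fitted log2 fold changes (points) with 95% intervals (lines) of the 29 other polyamine-linked genes that were tested, in 3 comparisons on a shared axis; the first-named group is on top of the fold. Slc22a3 stands at 1.28 for SNI+LDN193189 against SNI with a wide interval, and Amd2 and Arg1 have the widest intervals in that comparison.

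The genes whose levels over the 9 libraries ran most like Sat1 were found among 12115 genes with a mean of at least 5 CPM, by the Pearson correlation of log2 CPM. They were Evi5 (r = 0.964), Atp1b3 (0.961), Mpdz (0.953), Lta4h (0.948) and Spidr (0.934). After the group means were taken out, their correlations with Sat1 were 0.831, 0.911, 0.785, 0.899 and 0.957. The genes were picked on the same libraries, so these values are no separate observation. Evi5 averaged 103 CPM in SNI+LDN193189, 104 CPM in SNI and 117 CPM in sham, and Atp1b3, a subunit of the sodium pump, averaged 227 CPM in SNI+LDN193189, 237 CPM in SNI and 259 CPM in sham. All points share the same libraries, and these values describe likeness only. Of the other 9 polyamine genes Smox was the most like Sat1 (r = 0.529, and -0.118 within groups) and Oaz2 the least (r = -0.660, and -0.197 within groups). Sms had -0.622, and -0.903 within groups.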

How the data were processed

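Poly(A) RNA of 9 spinal cord samples was sequenced as paired ends from dUTP stranded libraries, per the labels' protocols. The authors deposited whole-number counts per gene symbol and FPKM values for the same symbols. The FPKM values equalled the deposited count divided by the library total and 1 fixed length per gene in 24535 of 24535 genes checked, within a relative tolerance of 1e-09. The mouse build is mm10 per the submitters' processing notes; aligner, counter and annotation are not given in the sources used here. Of the deposited counts above 0 in a library, 70.7 to 71.8% were even, and no label explains this.

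Counts were tested with edgeR 4.0.16 in R 4.3.3: filterByExpr kept 18245 of 40879 genes, TMM factors ran from 0.984 to 1.02, and all 9 libraries entered 1 quasi-likelihood fit of group means (robust, 6 residual degrees of freedom, biological coefficient of variation 0.132). P-values were two-sided, adjusted by Benjamini-Hochberg over all genes tested, and called under 0.05. CPM values use the TMM factors. The fit was tested on simulated data first. Alternatives used DESeq2 1.42.0, limma 3.58.1 (voom with sample weights, and log2 of FPKM with a pseudocount of 0.1), other scalings and filters, a replicate block, and leaving out libraries; 3 further ones were chosen after seeing the data. A chi-square statistic of counts between libraries of a group was 5.30 to 32.4 per gene, so libraries of a group did not hold the same counts. No p-value was computed from it, and libraries of different groups were not compared.

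Named beside the 10 genes were, per comparison, the 4 other pathway genes with the smallest p, and the 5 genes most like Sat1 (log2 CPM with a prior count of 2). The members, lists and tests were chosen with earlier results of these data known. Loci came from GENCODE M21, promoters from RefSeq (GRCm38.p6). Python 3.11.15, numpy 2.4.6 and matplotlib 3.10.9 were used for sequences and figures.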

Additional observations from a re-analysis of the deposited data

How the results depend on the processing

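The count of the 10 genes called was 0 under every alternative for SNI+LDN193189 against SNI. It was 1, Sat1 in each case, with DESeq2 in all 3 comparisons with sham, and with no filter on low counts in SNI+LDN193189 against sham and both injured groups against sham. Leaving out a library in turn gave 0 to 1 for both injured groups against sham, the 1 (Sat1) being without sham replicate 1, and 0 in the other comparisons. Nothing is read from any of these calls of Sat1, since these libraries chose the gene. Over all genes, DESeq2 called 6 in SNI+LDN193189 against SNI, 22 in SNI versus sham, 73 in SNI+LDN193189 versus sham and 56 in both against sham, beside 1, 0, 3 and 1 with edgeR; without the filter edgeR called 2, 0, 30 and 27. Limma-voom called 1, 0, 1 and 0, and limma on log2 FPKM 0, 0, 1 and 0. Without sham replicate 1 edgeR called 38 genes in SNI against sham and 61 in both against sham. Same-numbered libraries correlated at -0.109 to 0.144 in their deviations from the group means, and 5 of 9 libraries correlated best with their own number. Libraries of different numbers correlated at -0.180 to 0.132. These ranges overlap, so the check cannot tell whether the replicate numbers pair the samples. With the replicate block 0 of the 10 genes were called in each comparison, and over all genes it called 0 in SNI+LDN193189 against SNI and 3 in both against sham.

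Signs turned for genes near 0. Amd1 turned with the copies summed (0.0059 for SNI+LDN193189 against SNI, 0.0033 for SNI+LDN193189 against sham, 0.00033 for both against sham), with the replicate block (0.0030 for SNI+LDN193189 against SNI), and with voom (0.0075) and upper-quartile scaling (0.00062) for SNI against sham. Oaz2 in SNI+LDN193189 against SNI turned with limma on log2 FPKM (-0.0042), upper-quartile scaling (-0.0062), library totals (-0.0043) and counts halved (-0.0013). Voom turned Odc1 in SNI against sham (0.017) and Paox in SNI+LDN193189 against SNI (0.029). Without both sham replicate 3 and SNI+LDN193189 replicate 3, Odc1 in SNI against sham was 0.13, Smox in SNI+LDN193189 against SNI -0.063, and Sms -0.029 in SNI against sham and -0.012 in both against sham. The cause was not tested.

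Leaving out a library in turn gave log2 fold changes on both sides of 0 for these genes. In SNI+LDN193189 against SNI they ran from -0.10 to 0.082 for Amd1, -0.0091 to 0.019 for Oaz2, -0.11 to 0.041 for Paox, -0.061 to 0.086 for Smox and -0.0065 to 0.055 for Sms. In SNI against sham they ran from -0.095 to 0.091 for Amd1, -0.013 to 0.081 for Azin1, -0.099 to 0.13 for Odc1, -0.029 to 0.045 for Sms and -0.055 to 0.093 for Srm. In SNI+LDN193189 against sham they ran from -0.095 to 0.040 for Amd1, -0.028 to 0.20 for Odc1 and -0.0012 to 0.074 for Sms. In both against sham they ran from -0.092 to 0.043 for Amd1, -0.064 to 0.16 for Odc1 and -0.015 to 0.060 for Sms.
The median of all genes moved by at most 0.0167 on the log2 scale between TMM and library totals. With 3 libraries a group, the intervals of Paox, with the fewest counts, are the widest of the 10.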
